A study of Mus musculus with 6 samples.

Results

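The 10 genes described here are cytosolic members of the heat shock system. They are the heat shock transcription factors Hsf1 and Hsf2, the HSP90 genes Hsp90aa1 and Hsp90ab1, the HSP70 and HSP110 family genes Hspa8, Hspa2, Hsph1 and Hspa4, the J-domain co-chaperone Dnaja1 and the small heat shock protein Hspb1. They were chosen by symbol for their place in this system, not by a threshold on their values, but with earlier results of these data known. Each was found by its Ensembl identifier among the 53465 genes in the count table. The RNA of M II oocytes from Kunming (KM) mice of 9 to 10 months was sequenced in 6 pools. All oocytes were matured in vitro (IVM) for 16 h, the 3 control pools without quercetin and the 3 quercetin pools with 10 µM quercetin, a plant flavonol. Each pool held 15 oocytes from 3 mice. Kunming mice are an outbred stock. The labels do not say whether the control and quercetin pools of one number came from the same mice, and p-values measure only the spread between these pools.

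Chaperones keep proteins folded. HSP70 proteins bind unfolded stretches and are driven by J-domain proteins, which start ATP hydrolysis, and by nucleotide exchange factors such as the HSP110 proteins, which release ADP. HSP90 proteins take over partly folded clients such as kinases and steroid receptors, and small heat shock proteins hold unfolded proteins without ATP. HSF1 switches many of these genes on after stress by binding inverted repeats of GAA in their promoters, and in the mouse it is also a maternal factor of the oocyte that is needed for oocyte HSP90 alpha. An oocyte at metaphase of the second meiotic division no longer transcribes, so its mRNA was made earlier, during growth. The library kit primes on the poly(A) tail, so a count can move with tail length as well as with the amount of an mRNA.

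Total counts ran from 7880467 to 9938743 per pool, where 3 counts, the floor used here, correspond to 0.302 to 0.381 CPM (reads on a gene per 1000000 counted reads), without further scaling. This floor and all counting errors cover the counting of reads only. The CPM values that follow use library sizes scaled by TMM (trimmed mean of M-values), and 11842 genes that passed edgeR's filter on low counts were tested. The label of the cells was checked against markers. All 12 oocyte markers (zona pellucida genes, Gdf9, Bmp15, Mos and others) were detected, with summed levels of 17956 to 21838 CPM in control and 19932 to 21316 CPM in quercetin pools. Gdf9 and Oosp1 made up much of this sum, at means of 5760 and 6124 CPM in control pools. Single markers were less even between pools. Zp2 had 1990, 12980 and 5601 reads in control and 1045, 7734 and 11260 in quercetin pools. Of the 12 markers, 6 were fitted higher and 6 lower in quercetin pools. Cumulus and granulosa markers summed to 62.8 to 78.8 CPM in control and 80.0 to 85.4 CPM in quercetin pools, and Amhr2, Foxl2 and Ptx3 were at 0 in every pool. Others of this list had reads, with 14 to 49 per pool on Has2. Lhcgr and Tnfaip6 were at 0 in control pools but had 2 to 4 and 2 to 8 reads in quercetin pools. Star went the other way, with 2, 0 and 4 reads in control and 1, 0 and 0 in quercetin pools. Without Cyp19a1 the ranges of this list overlapped, at 4.33 to 11.2 and 6.94 to 10.5 CPM. Of the 8 leukocyte and red cell markers, all 4 haemoglobin genes were at 0 in every pool, and the list summed to 3.26 to 4.09 CPM in control and 3.62 to 4.24 CPM in quercetin pools. Most of this sum was Cd68, with 20 to 29 reads per pool. The part of these other cells in the results below was not tested. Quercetin replicate 3 stood apart from the other quercetin pools. In 639 of 11842 tested genes (5.40%) it was over 2 times as high as both of them, against 0.811% to 2.22% of tested genes for each of the other 5 pools within its own group. On the first principal component, the main axis of variation between pools, it lay at 30.8 beside control replicate 2 at 31.3. Quercetin replicates 1 and 2 were at -37.9 and -30.9 there, and on the second component they parted, at -21.1 and 41.0. Which quercetin pools are typical was not tested, so values that rest on quercetin replicate 3 are also given without it.

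None of the 10 genes was called different between quercetin-treated and control oocytes. Each had enough reads to be tested, and adjusted p-values ran from 0.988 to 0.999 (edgeR quasi-likelihood test, Benjamini-Hochberg adjustment over all 11842 tested genes). No gene of the table passed an adjusted p of 0.05 by this test (0.0% of those tested), and 477 genes (4.03%) had an unadjusted p under 0.05, 2.14% higher and 1.89% lower in quercetin pools, with 0 of the 10 among them. DESeq2 called 16 of 10702 genes (0.15%) and edgeR's likelihood ratio test 18 (0.152%), none of them among the 10, and limma-voom called 0. In the fitted values 4 of the 10 were higher in quercetin pools (Hsf1, Hsf2, Hsp90ab1 and Hspa2) and 6 were lower, while with library size as the only scaling Hsf1 and Hsf2 were lower as well. Pools of the groups did not overlap in 1 of the 10, Hspa2, which was higher, beside 5.42% of all tested genes that were higher without overlap, 5.17% that were lower and 10.6% without overlap in either direction. In a pool of oocytes, fewer cells with an mRNA and less of it per cell cannot be told apart.

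**Figure D1:**
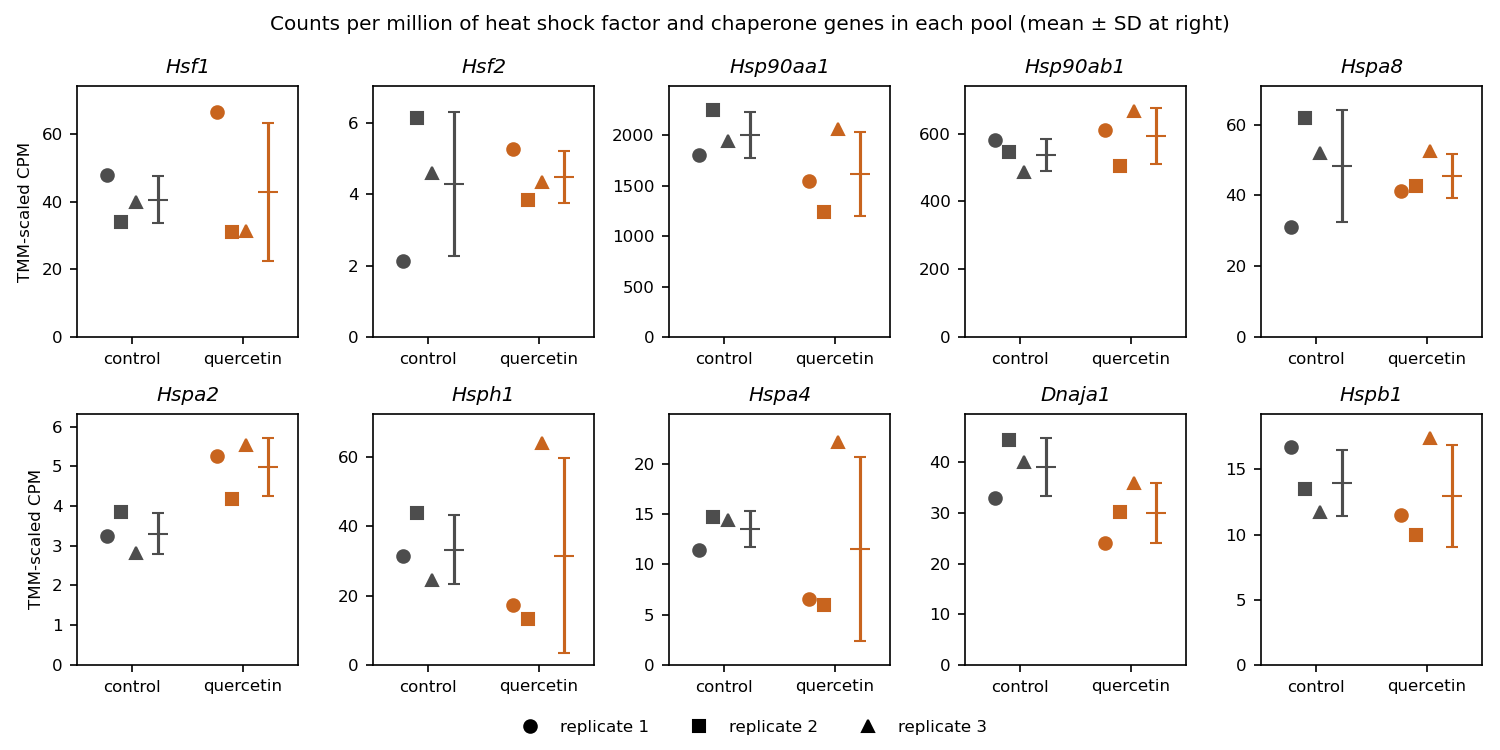
Level of each of the 10 genes in each pool, in CPM scaled by TMM, with the y axis of each panel starting at 0. Circles, squares and triangles are replicates 1, 2 and 3, and the bar at the right of each group is the mean ± SD of 3 pools. The groups overlap in every panel except Hspa2, and quercetin replicate 3 lies far above the other quercetin pools in Hsph1 and Hspa4.

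Levels differed far more between the genes than between the groups. Per kilobase of merged exon length, Hsp90aa1 was at 509 ± 57.8 CPM per kb and Hsp90ab1 at 179 ± 15.9 in control pools (mean ± SD, n = 3), in the 98.9th and 97.2nd percentile of tested genes. Hspb1 (13.5 ± 2.47) and Hspa8 (11.2 ± 3.65) followed, and their pool ranges overlapped. Hsf1 (5.72 ± 0.989), Hsph1 (4.57 ± 1.36) and Dnaja1 (4.53 ± 0.672) came next, and neighbours among these did not differ beyond the spread between pools. Hspa4 (2.44 ± 0.323), Hspa2 (1.25 ± 0.196) and Hsf2 (0.447 ± 0.210) were the lowest, with separate ranges in control pools. The factors thus stood apart, Hsf1 in the 60.8th and Hsf2 in the 9.80th percentile of tested genes. In quercetin pools Hspa4 overlapped both Dnaja1 and Hspa2. With the length of the longest transcript in place of merged exons, Hspa8 (15.3 CPM per kb) came before Hspb1 (15.0). Hsf1 was then close to both, at 13.0, so its distance from them depends on the length used. The order also depends on reads counted on the copies described below. With these added, control means were 928 CPM per kb for Hsp90aa1, 45.9 for Hspa8, 25.6 for Hspb1 and 15.3 for Dnaja1. Hspa8 then came before Hspb1, and Dnaja1 before Hsf1. Whether reads on the copies came from these genes was not tested.

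**Figure D2:**
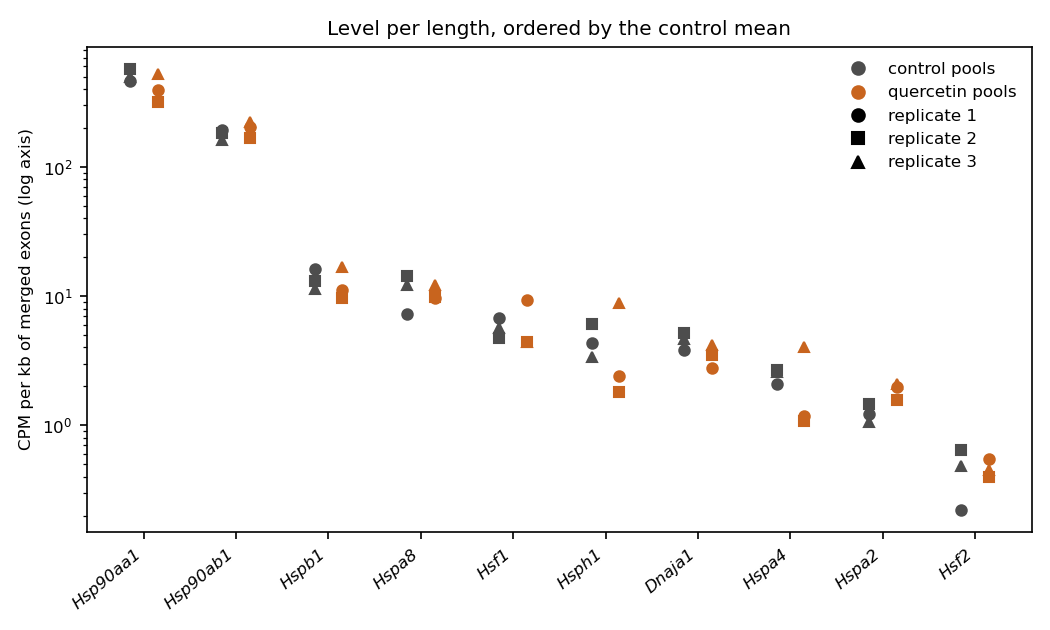
Level of the 10 genes in CPM per kb of merged exons, on a log axis, ordered by the control mean. Each point is a pool, grey for control and orange for quercetin, with shapes for replicate numbers. Hsp90aa1 and Hsp90ab1 lie far above the other genes in every pool, and Hsf2 is the lowest in all pools.

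The HSP90 pair held 92.1% to 93.1% of the reads counted on the 10 genes in every pool. All 10 together took 0.264%, 0.319% and 0.262% of counts in control replicates 1 to 3 and 0.220%, 0.173% and 0.310% in quercetin replicates 1 to 3. Means were 0.281% ± 0.0324 and 0.234% ± 0.0696 (SD, n = 3). The groups overlapped because quercetin replicate 3 lay beside the control pools.

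Hsf1 encodes the main stress-activated factor (ENSMUSG00000022556, chromosome 15 from 76477422 to 76501913, plus strand, GRCm38). It had 427, 282 and 356 reads in control replicates 1 to 3 and 531, 283 and 266 in the quercetin pools. Quercetin replicate 1 was alone at the top, and the other quercetin pools lay just under the lowest control pool in CPM. Means were 40.6 ± 7.02 and 43.0 ± 20.4 CPM, and the log2 fold change was 0.08 (SE 0.31, 95% interval -0.63 to 0.78). Without quercetin replicate 1 it was -0.38. The coefficient of variation was 47.5% over quercetin pools and 17.3% over control pools, where counting alone would give 5.29%.

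Hsf2 encodes a factor that forms mixed trimers with HSF1 and acts in gametes and embryos (ENSMUSG00000019878, chromosome 10 from 57486385 to 57513135, plus strand). Its reads were few, 19, 51 and 41 in control and 42, 35 and 37 in quercetin pools. The spread here was among the control pools, with replicate 1 lowest, and all quercetin pools fell within the control range. The log2 fold change was 0.06 (SE 0.39, interval -0.82 to 0.95), an interval that runs from 0.567-fold to 1.93-fold. The coefficient of variation was 47.0% over control pools and 16.1% over quercetin pools, where counting alone would give 16.3%. The ratio of Hsf2 to Hsf1 per length ran from 0.0329 to 0.134 in control and from 0.0585 to 0.103 in quercetin pools. It did not differ beyond this spread (difference of log2 ratios 0.18, two-sided exact permutation p = 0.8, also 0.8 adjusted over 4 ratios).

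Relatives and partners of these factors, listed by symbol, were also read. Hsf3 and Hsf4 were at 0 in every pool. Hsf5, a germ cell factor of the family, had 583 to 1048 reads per pool, and per length its control level of 21.5 ± 6.0 CPM per kb was above that of Hsf1. Of the 6 tested genes of this list 4 were higher and 2 lower in quercetin pools, with a median log2 fold change of 0.11 beside -0.03 over all tested genes. Without quercetin replicate 1 this median was -0.02. Hsf2bp, which binds HSF2 and is known for meiotic recombination, had 1742, 1543 and 1889 reads in control and 2068, 2261 and 2049 in quercetin pools. All quercetin pools were above all control pools, with a log2 fold change of 0.33 (SE 0.13) and an adjusted p of 0.988 by edgeR. Rpa1, a single-stranded DNA binding subunit that also joins HSF1 on chromatin, did not overlap either (0.32, SE 0.17). Hsbp1, whose product binds HSF1 trimers, was abundant at 404 ± 23.8 CPM in control and 466 ± 83.5 CPM in quercetin pools, and its groups overlapped.

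Hsp90aa1 encodes HSP90 alpha, the stress-inducible cytosolic HSP90 (ENSMUSG00000021270, chromosome 12 from 110690605 to 110702728, minus strand). It had 16108, 18725 and 17289 reads in control and 12324, 11330 and 17506 in quercetin pools. In CPM, quercetin replicates 1 and 2 were below every control pool and replicate 3 was between control replicates 3 and 2. Means were 2001 ± 227 and 1616 ± 414 CPM, a log2 fold change of -0.31 (SE 0.20, interval -0.75 to 0.14, unadjusted p = 0.151 and adjusted p = 0.988 by edgeR). Without quercetin replicate 3 it was -0.52, with an adjusted p of 0.259, and without quercetin replicate 2 it was -0.15.

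Hsp90ab1 encodes HSP90 beta, the constitutive form (ENSMUSG00000023944, chromosome 17 from 45567775 to 45573271, minus strand). It had 5174, 4544 and 4321 reads in control and 4873, 4598 and 5662 in quercetin pools. The groups overlapped in the middle of their ranges, and it varied least of the 10 genes between pools (biological coefficient of variation, the spread beyond counting error, 0.167, in the 4.16th percentile of tested genes). Means were 538 ± 47.8 and 594 ± 82.3 CPM, with a log2 fold change of 0.14 (SE 0.15). Its interval of -0.20 to 0.49 in the fit of all 6 pools leaves out a change of more than 1.40-fold upward. Leaving out each pool in turn gave 0.05 (without quercetin replicate 3) to 0.25 (without quercetin replicate 2).

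The ratio of the 2 HSP90 genes, among the 4 ratios computed, was compared within each pool, where library scaling cancels. The 2 genes were fitted in opposite directions, and the ratio draws on the same counts. Per length, Hsp90aa1 was 2.38, 3.14 and 3.05 times Hsp90ab1 in control replicates 1 to 3 and 1.93, 1.88 and 2.36 times in quercetin replicates 1 to 3. The ratio was lower in every quercetin pool than in every control pool, although the highest quercetin pool was close to the lowest control pool. The difference of log2 ratios was -0.47 (two-sided exact permutation p = 0.1, the smallest that 3 pools against 3 allow, and 0.2 adjusted over the 4 ratios computed). Leaving out each pool in turn gave -0.60 to -0.40.

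The start of the coding sequence is shown for both HSP90 genes because many reads of Hsp90aa1 could not be assigned by sequence alone. The first 60 coding bases, from GENCODE M21 transcripts on GRCm38, are identical in Hsp90aa1 and in its intronless copies Gm12346 and Gm5844, while Hsp90ab1 differs. Capitals, where used in this set and in those that follow, mark bases that differ from the parent gene.
Hsp90aa1, Gm12346 and Gm5844: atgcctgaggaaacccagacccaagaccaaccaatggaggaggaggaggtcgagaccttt
Hsp90ab1: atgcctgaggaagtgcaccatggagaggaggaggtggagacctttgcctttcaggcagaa
Over the coding part Gm12346, annotated as a transcribed processed pseudogene on chromosome 11 from 77293444 to 77295898, was 99.5% identical to Hsp90aa1. Gm5844, on chromosome 3 from 18008806 to 18010996, was 98.4% identical, and Hsp90ab1 was 76.5% identical. Of all 31-base words, the runs of 31 letters, in Hsp90aa1 transcripts 51.5% also occur in transcripts of other genes, against 13.2% for Hsp90ab1.

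Reads were counted on these copies in every pool. Gm12346 had 10225, 11125 and 11041 reads in control and 7399, 7528 and 10052 in quercetin pools, and Gm5844 had 3111, 3515 and 3980 and then 2431, 2496 and 3465. On both copies, as on Hsp90aa1, quercetin replicates 1 and 2 were the lowest pools, while the order of the other pools differed. Hsp90aa1 kept 53.1% to 56.4% of the reads on the trio, and whether reads on the copies came from Hsp90aa1 mRNA was not tested. With the copies added, an alternative chosen after the data were seen, the log2 fold change of Hsp90aa1 was -0.32 (SE 0.18, adjusted p = 0.988 by edgeR). The summed ratio to Hsp90ab1, from the same pools, was also lower in every quercetin pool. Its difference was -0.48 (two-sided exact permutation p = 0.1, and 0.4 adjusted over the 4 ratios with copies summed).

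**Figure D3:**
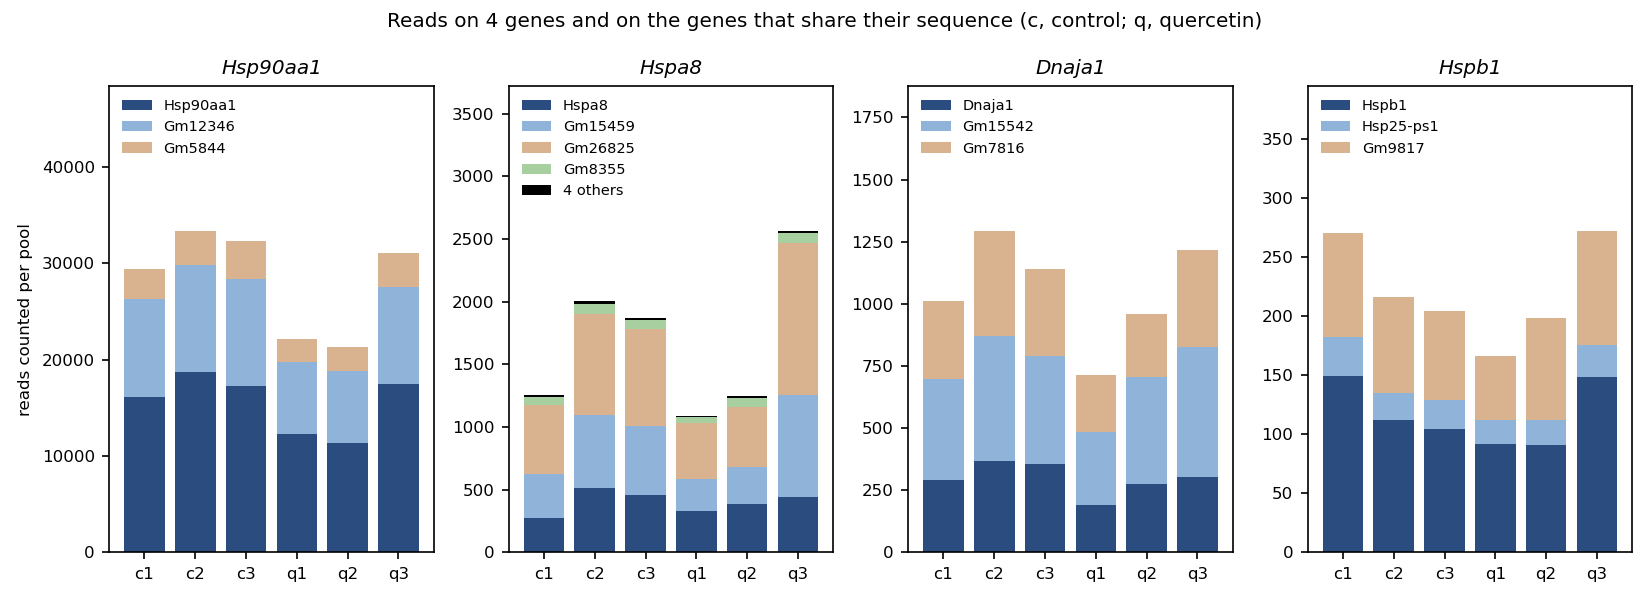
Reads counted per pool on Hsp90aa1, Hspa8, Dnaja1 and Hspb1 (dark blue) and on the genes that share at least 10% of their 31-base words (other colours), stacked, with y axes starting at 0. For Hspa8 the reads on copies exceed those on the gene in every pool, and quercetin replicate 3 has the tallest bar.

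HSP90 works with co-chaperones that load clients and set its ATPase cycle. Of 19 such genes 17 were tested, 5 were higher and 12 lower in quercetin pools, none was called, and the median log2 fold change was -0.09. The highest per length were Ahsa1, which encodes the ATPase activator AHA1, and Ptges3, which encodes p23. Ahsa1 had 2621 to 3170 reads in control and 3111 to 3550 in quercetin pools, without overlap in CPM (log2 fold change 0.19, SE 0.13). Ptges3 had 2143 to 3173 reads in control pools but 955 in quercetin replicate 2, against 3443 and 2840 in the other quercetin pools. Ppid, which encodes the cyclophilin CYP40, did not overlap (0.26, SE 0.16), and Stub1, the ubiquitin ligase CHIP, was at -0.38 (SE 0.26). Of the exon length of Stub1, 42.3% overlaps genes on the other strand, and the part of their reads in its counts was not tested.

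Hspa8 encodes HSC70, the constitutive cytosolic HSP70 (ENSMUSG00000015656, chromosome 9 from 40800984 to 40810087, plus strand). It had 277, 514 and 462 reads in control and 330, 388 and 446 in quercetin pools. Control replicate 1 was the lowest pool, and the quercetin pools lay inside the control range. Means were 48.3 ± 15.7 and 45.5 ± 6.12 CPM, with a log2 fold change of -0.09 (SE 0.26, interval -0.67 to 0.50).

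More reads were counted on copies of Hspa8 than on the gene. Its transcripts share 44.8% of their 31-base words with other genes, and its coding start is found letter for letter in the copies Gm15459 and Gm8355.
Hspa8, Gm15459 and Gm8355: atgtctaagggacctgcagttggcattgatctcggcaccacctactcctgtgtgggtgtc
Gm15459 (chromosome 5 from 5781615 to 5783555, minus strand, 99.7% identical over the coding part) had 351, 580 and 545 reads in control and 259, 293 and 807 in quercetin pools. Gm26825, a long non-coding RNA gene annotated on the other strand of the same place, had 546, 810 and 778 and then 441, 482 and 1213. On both, quercetin replicate 3 was the highest of all pools, 2.93 and 2.58 times the next quercetin pool in CPM, while Hspa8 itself was only 1.23 times as high there. The strand used in counting is not given in the sources used here, so reads of this pair cannot be told apart. The share of the summed reads counted on Hspa8 was 22.1%, 25.6% and 24.7% in control and 30.2%, 31.1% and 17.4% in quercetin pools. Summed over Hspa8 and 7 copies, the log2 fold change was -0.04 (SE 0.33).

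Hspa2 encodes an HSP70 best known from male germ cells, where meiosis depends on it (ENSMUSG00000059970, chromosome 12 from 76404176 to 76406938, plus strand). It had 29, 32 and 25 reads in control and 42, 38 and 47 in quercetin pools. The lowest quercetin pool was still above the highest control pool, by 6 reads between the nearest pools. Means were 3.30 ± 0.519 and 4.99 ± 0.722 CPM, a log2 fold change of 0.59 (SE 0.29, interval -0.06 to 1.24, unadjusted p = 0.0684 and adjusted p = 0.988 by edgeR). The exact permutation test gave its smallest p of 0.1. Counting alone gives a coefficient of variation of 16.8% at this depth, against 15.7% and 14.5% observed over control and quercetin pools. Scaled by total counts only, the groups overlapped. Only 0.115% of its words are shared with other genes.

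The heat-inducible HSP70 genes were close to absent. Hspa1a had at most 2 reads in any pool and Hspa1b at most 5, that is at or near the floor of 3, and 70.1% and 68.1% of their words are shared with other genes, so reads that match both could be lost. Hspa1l had at most 2. Of the 16 genes in the wider list of HSP70 and nucleotide exchange factors, these included, 9 were tested, with 6 higher, 3 lower and a median of 0.04. Hspa14, which encodes a ribosome-associated HSP70, had 1373 to 1790 reads in control and 1804 to 2078 in quercetin pools, without overlap in CPM (log2 fold change 0.29, SE 0.15). St13, the HSP70-interacting protein HIP, was among the most abundant of this list (160 ± 34.8 and 145 ± 32.2 CPM). Bag1, a nucleotide exchange factor, was at -0.90 (SE 0.52) on 5 to 25 reads per pool, with overlap.

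Hsph1 and Hspa4 belong to the HSP110 family, whose products release ADP from HSP70. Their pools were the most uneven of the 10 genes, and in the same way. Hsph1 (ENSMUSG00000029657, chromosome 5 from 149614287 to 149636376, minus strand) had 280, 365 and 217 reads in control and 139, 120 and 544 in quercetin pools. Hspa4 (ENSMUSG00000020361, chromosome 11 from 53259814 to 53300457, minus strand) had 102, 122 and 128 reads in control and 52, 54 and 188 in quercetin pools. In both genes quercetin replicates 1 and 2 were below every control pool and quercetin replicate 3 was above every control pool.

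Quercetin replicate 3 was 3.68 times the next quercetin pool in Hsph1 and 3.40 times in Hspa4 (CPM). Means were 33.2 ± 9.86 and 31.5 ± 28.2 CPM for Hsph1, with a log2 fold change of -0.08 (SE 0.54, interval -1.29 to 1.14). For Hspa4 they were 13.5 ± 1.79 and 11.5 ± 9.19 CPM, with a log2 fold change of -0.23 (SE 0.47, interval -1.29 to 0.84). These intervals include more than 2-fold changes in both directions for Hsph1 and downward for Hspa4. Biological coefficients of variation were 0.465 and 0.411, in the 95.2nd and 91.7th percentile of tested genes, and neither gene shares any 31-base word with another gene. Without quercetin replicate 3 the log2 fold change was -1.12 for both, with unadjusted p of 0.00575 and 0.0021 and adjusted p of 0.231 and 0.194 by edgeR.

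The third HSP110 gene, Hspa4l, did not share this pattern in its reads, with 351, 309 and 267 in control and 305, 292 and 320 in quercetin pools and a log2 fold change of 0.02 (SE 0.19). The ratio of Hsph1 to Hspa8 per length was 0.598, 0.420 and 0.278 in control and 0.249, 0.183 and 0.722 in quercetin pools. It overlapped between groups, with a difference of log2 ratios of -0.36 (two-sided exact permutation p = 0.7, adjusted 0.8).

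Dnaja1 encodes a J-domain partner of HSC70 (ENSMUSG00000028410, chromosome 4 from 40722150 to 40737149, plus strand). It had 293, 369 and 356 reads in control and 192, 275 and 305 in quercetin pools. Quercetin replicates 1 and 2 were below every control pool, and replicate 3 was just above the lowest control pool in CPM. Means were 39.1 ± 5.80 and 30.04 ± 5.92 CPM, a log2 fold change of -0.38 (SE 0.22, interval -0.87 to 0.11, unadjusted p = 0.113 and adjusted p = 0.988 by edgeR). Without quercetin replicate 3 it was -0.53 with an adjusted p of 0.357, and without quercetin replicate 1 it was -0.24.

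Dnaja1 also has copies on which reads were counted. The copy Gm15542 differs from it at 1 of the first 60 coding bases, and Gm7816 at none.
Dnaja1 and Gm7816: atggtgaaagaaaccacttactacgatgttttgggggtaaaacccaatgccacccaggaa
Gm15542: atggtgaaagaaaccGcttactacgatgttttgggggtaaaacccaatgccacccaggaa
Over the coding part they were 99.4% (Gm15542) and 99.3% (Gm7816) identical. Gm15542 had 403, 503 and 433 reads in control and 293, 430 and 522 in quercetin pools, more than Dnaja1 in every pool, and Gm7816 had 316, 422 and 350 and then 227, 254 and 390. Summed with both, the log2 fold change of Dnaja1 was -0.23 (SE 0.21). The ratio of Dnaja1 to Hspa8 per length was lower in every quercetin pool (difference of log2 ratios -0.35, two-sided exact permutation p = 0.1, adjusted 0.2). The highest quercetin pool (0.353) was close to the lowest control pool (0.358), and without control replicate 1 the difference was -0.18. With copies summed on both sides the ratio overlapped between groups, at -0.14 with an exact permutation p of 0.7. In addition 10.8% of the exon length of Dnaja1 overlaps Smu1 and other genes, 9.93% of it with genes on the other strand. Smu1 had 14604 to 21581 reads per pool, and how many reads from this overlap were counted on Dnaja1 was not tested.

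Of 22 other cytosolic J-domain genes 14 were tested, with 4 higher, 10 lower and a median log2 fold change of -0.05. Dnajc8, a splicing-related member, was the most abundant per length (140.2 ± 26.7 CPM per kb in control pools) and overlapped between groups (-0.06, SE 0.20). Dnajb4, a partner of HSP70, was next, with 6295, 5665 and 6402 reads in control and 7203, 8557 and 6546 in quercetin pools. Its quercetin pools were all higher (0.31, SE 0.13, unadjusted p = 0.0464 and adjusted p = 0.988 by edgeR). Dnajc2, a ribosome-associated J-protein, had 426 to 454 reads in control and 291 to 383 in quercetin pools, all lower (-0.40, SE 0.19).

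Hspb1 encodes the small heat shock protein HSP25 of the mouse (ENSMUSG00000004951, chromosome 5 from 135887919 to 135889563, plus strand). It had 149, 112 and 104 reads in control and 92, 91 and 148 in quercetin pools. Quercetin replicates 1 and 2 were the lowest pools and replicate 3 the highest in CPM. Means were 14.0 ± 2.55 and 13.0 ± 3.93 CPM, with a log2 fold change of -0.11 (SE 0.27). It shares 55.4% of its words, the largest share of the 10 genes, mostly with Hsp25-ps1, which is 99.4% identical over the coding part and differs at 1 of the first 60 bases.
Hspb1: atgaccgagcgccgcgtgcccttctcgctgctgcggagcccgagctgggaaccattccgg
Hsp25-ps1: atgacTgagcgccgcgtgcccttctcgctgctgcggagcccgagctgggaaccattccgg
Hsp25-ps1 had 20 to 33 reads per pool, and Gm9817, which overlaps it on the other strand, had 54 to 97. Summed with both, the log2 fold change was -0.09 (SE 0.23). Of the other 9 small heat shock genes, 6 were at 0 in every pool, among them Cryab. The tested ones, Hspb6 (-0.08, SE 0.27) and Hspb11 (-0.06, SE 0.22), overlapped between groups.

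**Figure D4:**
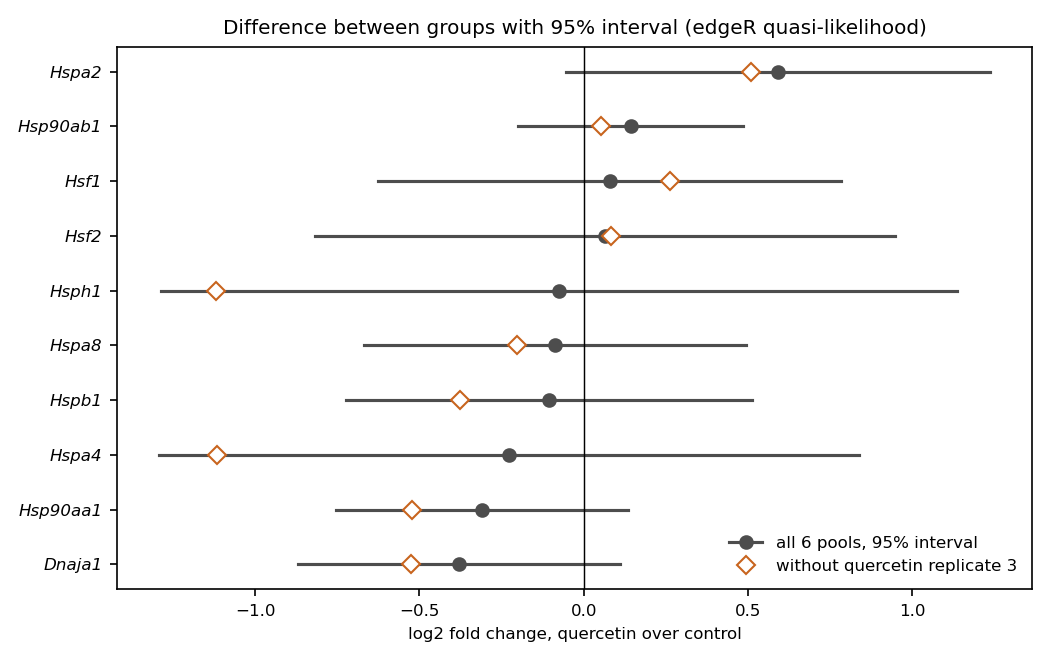
Log2 fold change of quercetin over control for the 10 genes, with 95% interval, from edgeR's quasi-likelihood fit of all 6 pools (filled) and without quercetin replicate 3 (open diamonds). All intervals of the fit of 6 pools include 0, and Hsph1 and Hspa4 move furthest, to -1.12, without that pool.

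Leaving out quercetin replicate 3 moved several of the 10 genes together. Without it 4 of the 10 had an unadjusted p under 0.05, all lower (Hsp90aa1, Hspa4, Hsph1 and Dnaja1), beside 8.30% of tested genes that were lower at this level and 13.0% in either direction. Pools then did not overlap in 6 genes, 5 lower (these and Hspb1) and Hspa2 higher, beside 17.4% of tested genes lower and 14.3% higher without overlap. After adjustment 6 genes of the table were called (0.0507%), none of them among the 10. The direction of 6 of the 10 (Hsf1, Hsf2, Hspa4, Hspa8, Hsph1 and Hspb1) turned on leaving out 1 pool or another, and Hsp90aa1, Hsp90ab1, Hspa2 and Dnaja1 kept theirs.

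Known heat-inducible targets of HSF1 were read as a list, which holds 4 of the 10 genes. Of its 16 genes 11 were tested, 3 were higher and 8 lower in quercetin pools, none was called, and the median log2 fold change was -0.09. It was 0.05 without control replicate 2 and 0.09 without quercetin replicate 2. Several genes of this list had few or no reads in either group. Bag3 had 1 read in all, Cryab and Serpinh1 had 0, and Hspa1a and Hspa1b were as given above. Among the expressed ones, Dnajb1 (-0.04, SE 0.19), Stip1 (-0.09, SE 0.26), Chordc1 (0.08, SE 0.17), Hspa4l and Fkbp4 (-0.12, SE 0.63) overlapped between groups. The mitochondrial pair Hspd1 and Hspe1, which share a promoter region, were fitted in opposite directions, each without overlap. Hspd1, the HSP60 chaperonin, had 440 to 489 reads in control and 503 to 572 in quercetin pools (0.22, SE 0.15), and Hspe1, its co-chaperonin, had 355 to 361 and 283 to 349 (-0.17, SE 0.17). Of their words 53.1% and 30.5% are shared with other genes.

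Promoters of the 10 genes, and of Hspa1a and Hspa1b, were searched for the paired GAA units that HSF1 binds. RefSeq windows (GRCm38.p6) of 250 bases before to 50 after a start site were at hand for 6 of the 10 genes. The motifs were GAANNTTC and TTCNNGAA, each its own reverse complement and so the same on both strands, which occur in 7.86% and 8.52% of all 32851 windows and in 15.1% as either. The 13-letter motifs TTCNNGAANNTTC and GAANNTTCNNGAA contain both of these, are reverse complements of each other, and occur in 0.320% and 0.310% of windows. Matches, in capitals, were found for Dnaja1 (in 1 of its 3 windows), Hspb1 and Hsph1, and for the inducible Hspa1a and Hspa1b. Each is printed on the strand of its gene.
Dnaja1, chr4:40722333-40722362: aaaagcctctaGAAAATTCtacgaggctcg
Hspb1, chr5:135887801-135887830: aGAAGTTTCcagatgggggcaGAACCTTCc
Hsph1, chr5:149636351-149636380: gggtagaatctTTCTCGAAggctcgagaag
Hsph1, chr5:149636287-149636316: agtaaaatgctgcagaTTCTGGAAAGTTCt
Hspa1a, chr17:34972242-34972271, and Hspa1b, chr17:34959324-34959353: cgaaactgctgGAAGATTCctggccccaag
The match in Dnaja1 lies at positions -124 to -117 from a start site and those in Hspb1 at -117 to -90. Hsph1 has a match at -33 to -26 and, after its start site, the longer TTCNNGAANNTTC. The windows of Hsf2, Hspa4 and Hspa2 held none of these letters.

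**Figure D5:**
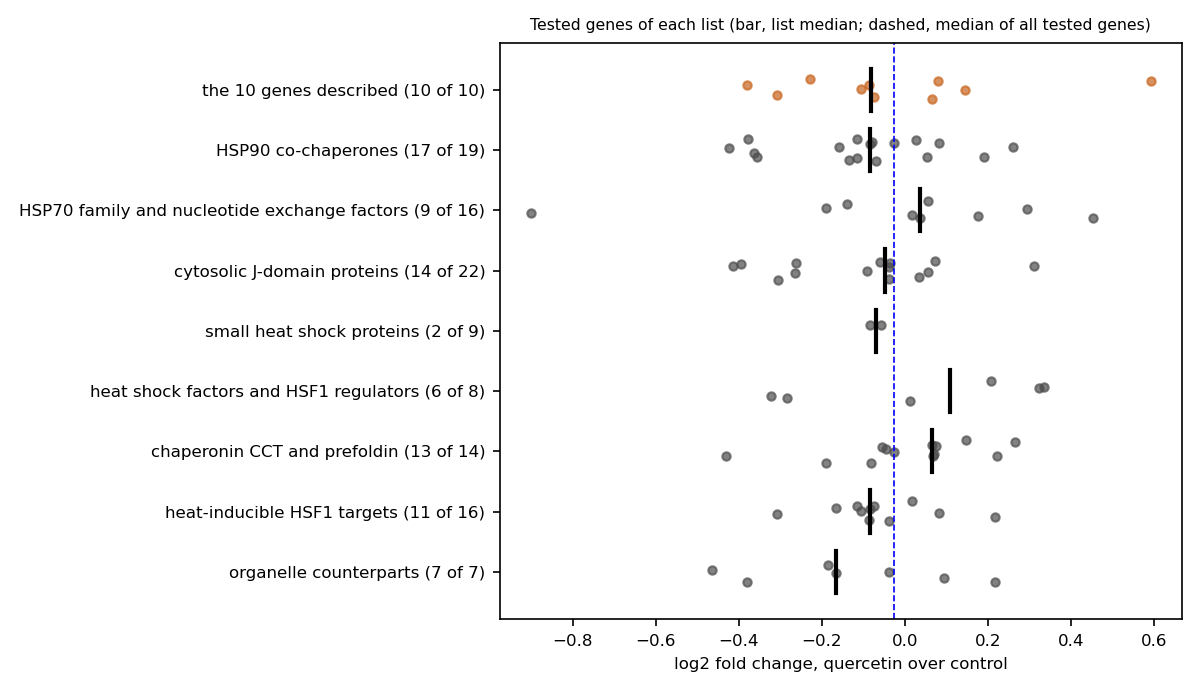
Log2 fold change of quercetin over control for the tested genes of each chaperone list, 1 point per gene, with the number tested of the number listed in brackets. Black bars are list medians and the dashed line is the median of all 11842 tested genes, -0.03. Every list has genes on both sides of 0 except the small heat shock proteins, with 2 tested genes.

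Over all wider lists, with the 10 genes left out, 68 of 96 genes were tested. Of these 28 were higher and 40 lower (58.8%, beside 53.6% of all tested genes), the median log2 fold change was -0.04, and none was called. Pools did not overlap in 8 higher (11.8%) and 3 lower genes (4.41%), beside 5.42% and 5.17% of all tested genes, and this difference was not tested. The chaperonin CCT and prefoldin, which fold actin and tubulin, were divided, with 7 higher and 6 lower. In this list Cct8 (0.27, SE 0.14, on 2405 to 3492 reads per pool) and Cct7 (0.22, SE 0.16) had the smallest p. Pfdn4, the most abundant, was at 0.06 (SE 0.24), and 28.7% of its exon length overlaps genes on the other strand. Organelle counterparts of the 10 genes had the lowest median, -0.17, with 5 of 7 lower, but the median was 0.0065 without control replicate 2 and -0.35 without quercetin replicate 3. The mitochondrial HSP70 Hspa9 (0.09, SE 0.18) and the endoplasmic HSP90 Hsp90b1 (-0.19, SE 0.20) were the most abundant, and the mitochondrial HSP90 Trap1 was at -0.47 (SE 0.43).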

How the data were processed

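RNA of 3 control and 3 quercetin pools was sequenced after full-length cDNA synthesis from poly(A) RNA (SMART-Seq HT kit). The authors deposited counts, whole numbers of reads per Ensembl gene in each pool, without normalization or pooling. Their methods give Hisat2 and GRCm38.91, whereas the submitters' processing notes name TopHat2 2.0.6, CASAVA 1.8 and mm10 or GRCm38. The counting program and its settings for strand and multiply matching reads are not given in the sources used here, so genes with close copies are uncertain. Groups and replicate numbers came from sample titles.

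Symbols and coordinates came from GENCODE M21 on GRCm38 (53360 of 53465 identifiers matched). Low genes were removed with edgeR 4.0.16 in R 4.3.3 (filterByExpr, minimum count 10), which left 11842 of the 24476 genes that had any count. Quercetin was compared with control by glmQLFit and glmQLFTest with TMM scaling and no covariate, and p-values were adjusted by Benjamini-Hochberg over all tested genes. A call was an adjusted p under 0.05, and the study's criteria add a fold change over 2. The fit was tested on simulated counts. Levels use TMM-scaled CPM, per kb of merged exons between genes. Single values and 4 ratios were compared by two-sided exact permutation tests. Shared sequence is the percent of 31-base words found in other genes' transcripts (Python 3.11.15, numpy 2.4.6, pandas 2.3.3), and motifs were searched in RefSeq promoter windows. Plots were drawn with matplotlib 3.10.9.

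The 10 genes and all lists were chosen with earlier results of these data known. The text names these genes, in each wider list the 2 tested genes with the smallest unadjusted p and the 2 with the highest level per length, and every listed heat-inducible target. Relatives and near-identical copies of the 10 genes were also named, after their values were seen. As alternatives, limma 3.58.1 (voom), DESeq2 1.42.0 and the likelihood ratio test of edgeR were run, with DESeq2's size factors, library size only, 2 other filters, each pool left out, the replicate number as a block, longest-transcript lengths and, added after the data were seen, sums of reads on copies.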

Additional observations from a re-analysis of the deposited data

How the results depend on the processing

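None of the 15 alternative fits called any of the 10 genes or any gene of the wider lists. Scaling by library size only moved the median log2 fold change of all tested genes from -0.03 to -0.11. There Hsf1 was at -0.0132 and Hsf2 at -0.0237, both turned in direction, and the number of the 10 genes without overlap between groups went from 1 to 0. Hsf1 was also at -0.0136 by limma-voom. Leaving out each pool in turn gave 0 to 4 genes with an unadjusted p under 0.05 and 1 to 6 genes without overlap, the highest of both without quercetin replicate 3. It gave log2 fold changes of -0.38 to 0.27 for Hsf1, -0.26 to 0.41 for Hsf2, -1.12 to 0.0874 for Hspa4, -0.32 to 0.13 for Hspa8, -1.12 to 0.29 for Hsph1 and -0.38 to 0.0526 for Hspb1, and differences of log2 ratios of -0.95 to 0.0424 for Hsph1 to Hspa8 and -0.38 to 0.63 for Hsf2 to Hsf1. The cause of these turns was not tested. The pools were not treated as paired, since the study does not describe them as paired. Correlations of the deviations of same-numbered pools were 0.296, 0.101 and -0.0303 (mean 0.122, against -0.0612 for differently numbered pools). Of the 6 pools, 3 correlated best with their own number. Same-numbered pools thus correlated more on average, and these values do not settle whether pools were paired. With the replicate number as a block 0 genes of the table were called, and Hsf1 was at -0.00042. Hspa2 and Hsf2 had the fewest reads of the 10 genes, 19 to 51 per pool. Leaving out each pool in turn gave list medians of -0.24 to -0.03 for HSP90 co-chaperones, -0.10 to 0.15 for HSP70 and exchange factors, -0.20 to -0.04 for J-domain proteins and -0.07 to 0.11 for CCT and prefoldin.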

Other observations

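The split of the quercetin pools seen in Hsph1 and Hspa4 was also found in other chaperone genes, which are named here after their values were seen. Of the 68 tested genes of the wider lists, 6 were over 2 times as high in quercetin replicate 3 as in both other quercetin pools (8.82%, beside 5.40% of all tested genes, a difference that was not tested). They were the endoplasmic HSP70 Hspa5, its HSP110 relative Hyou1, the HSP90 co-chaperones Cdc37 and Nudc, the J-protein Dnajc7 and the chaperonin subunit Cct2. Hspa5 had 394, 728 and 504 reads in control and 278, 261 and 690 in quercetin pools, Nudc had 308, 364 and 322 and then 132, 159 and 467, and Cct2 had 408, 481 and 447 and then 193, 242 and 539. In each of these quercetin replicates 1 and 2 were the lowest pools. Hsp90ab1, Dnajb1 and Hspa4l, also named after their values were seen, showed no such split. The cut of 2 times leaves out weaker forms of it. Stip1 had 264, 215 and 419 reads in quercetin pools and Cct5 had 263, 233 and 537, so the split was not limited to the genes named.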
